A study of Bos taurus with 12 samples.

Results

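Endometrial biopsies of grazing dairy cows (Bos taurus) whose progesterone on day 4 of the estrous cycle was labelled high, above 2.5 ng/ml, were compared with biopsies labelled low, below 1.4. There were 3 high and 3 low libraries, 6 of the 12 in the series, and each was put in its class by its label and column title. The label of the low class gives its bound in mg/dl where the other classes have ng/ml, so the sizes of the bounds are not set against each other here. The other 6 libraries, 3 labelled very high (above 20 ng/ml) and 3 labelled very low (below 0.25 ng/ml), entered the main model for its estimate of the spread. They also entered the filter that chose the tested genes and the scaling of the counts. The sources used here name no breed, age or treatment of the cows, and nothing in them ties a replicate to an animal of its own, so a p-value here measures only how far these samples spread, which may be technical. Reads of polyadenylated RNA were counted per gene symbol, and a level is given as CPM, the read count scaled to a common library size after scaling by library composition.

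In the first days of the estrous cycle the corpus luteum forms and begins to secrete progesterone, which prepares the endometrium to nourish an embryo. Progesterone acts through its nuclear receptor in the epithelium and stroma, and over the luteal phase it is known to reduce the receptors for estrogen and oxytocin. The endometrium is a layer of surface and glandular epithelium on a connective stroma with vessels and leukocytes, and it lies on the myometrium, the smooth muscle wall of the uterus. Smooth muscle contracts when calcium activates myosin light chain kinase, and its cells are recognised by their own isoforms of myosin and actin.

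Total counts ran from 6952815 to 7487867 in the high libraries and from 7036929 to 8096116 in the low libraries, so depth hardly differed between the classes. Of 13930 gene symbols, 10959 had enough counts to be tested. Spearman's correlation across genes was 0.957 to 0.972 between high libraries, 0.881 to 0.942 between low libraries and 0.864 to 0.940 across the classes, so the low libraries were more unlike each other. Epithelial markers (13 genes, mean log2 CPM per library 6.44 to 6.91 in high and 6.78 to 7.65 in low libraries) and stromal markers (14 genes, 8.74 to 9.11 in high and 8.32 to 10.28 in low libraries) were present in all 6, as the tissue label says.

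Smooth muscle genes lay far apart in the high and low libraries. MYH11, the smooth muscle myosin heavy chain, had 310, 436 and 494 CPM in the high libraries, against 2.11, 1.92 and 2.17 CPM in the low libraries; it overlaps NDE1, and reads of the pair cannot be separated here. ACTG2, the gamma actin of visceral smooth muscle, had 1603, 2539 and 5087 CPM in high, against 9.62, 17.8 and 20.0 CPM in low. ACTA2, the alpha actin of smooth muscle, had 4526, 8105 and 11312 CPM in high, against 109, 173 and 281 CPM in low. For each of these genes every high library lay above every low library, by more than 10-fold. The actins are near-identical in sequence, and the counting program is not given in the sources used here, so the share of reads given to each actin is uncertain.

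The other named markers of the contractile apparatus had the same order. DES, the muscle intermediate filament desmin, had 1318, 1703 and 3700 CPM in high, against 60.6, 81.6 and 210 CPM in low. TAGLN, an actin-binding protein of smooth muscle, had 2620, 3343 and 5359 CPM in high, against 79.2, 140 and 416 CPM in low. CNN1, calponin, which damps myosin activity, had 1071, 1460 and 2669 CPM in high, against 26.6, 158 and 77.7 CPM in low. Again no library of a class reached the range of the other class. HSPB6, a small heat shock protein of muscle, was the exception among the tested markers: it had 390, 436 and 486 CPM in high, against 298, 210 and 707 CPM in low, and the classes overlapped (log2 fold change 0.11, SE 0.77).

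Taken as a list, 17 of the 18 tested smooth muscle markers were higher in every high library than in any low library, where 10.3% of all tested genes were. Their median log2 fold change, high over low, was 4.04, beside -0.02 for all tested genes. The mean log2 CPM of the 18 markers was 8.75, 9.34 and 9.95 in the high libraries, against 4.66, 5.17 and 5.52 in the low libraries, a difference of 4.23 with SDs of 0.60 in high and 0.43 in low (n = 3 each). The lowest high library lay 3.24 above the highest low library on that log2 scale. An exact permutation test of 3 against 3 libraries cannot give a p below 0.1, and none is given, since the markers were chosen with this difference known. In bulk RNA, fewer smooth muscle cells and less smooth muscle RNA per cell cannot be told apart. In these 6 libraries the smooth muscle level and the progesterone class separate the samples in the same way and cannot be told apart either.

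**Figure D1:**
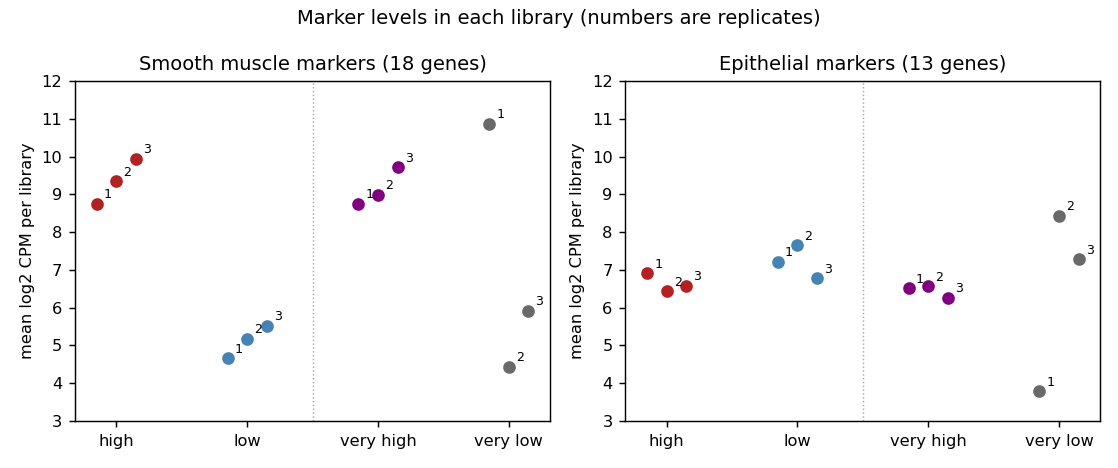
Mean log2 CPM of the smooth muscle markers (left) and the epithelial markers (right) in each of the 12 libraries, with each point labelled by its replicate number. The high libraries sit at 8.75 to 9.95 for smooth muscle, above the low libraries at 4.66 to 5.52, and the very low class holds 1 library at 10.87 beside others at 4.44 and 5.91.

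The other libraries of the series bear on this order. The very high libraries had smooth muscle levels of 8.75, 8.98 and 9.72 on the same log2 scale, close to the high libraries. The very low libraries had 10.87, 4.44 and 5.91, so replicate 1 of the class with the least progesterone had the highest level of the series. That library also had the lowest epithelial level, 3.78, where the other 11 libraries had 6.26 to 8.43.

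Vessel wall markers did not follow the smooth muscle markers. Of 7 tested pericyte markers only MCAM, a surface adhesion molecule of pericytes and smooth muscle, had classes that did not overlap, with 58.5, 67.8 and 89.8 CPM in high, against 13.0, 20.6 and 22.1 CPM in low. The median log2 fold change of the pericyte list was 0.09, with 1 of 7 members higher without overlap. For endothelium it was 0.17, with 1 of 15 members higher without overlap, a share below the 10.3% of all genes. The mean log2 CPM of the endothelial list was 4.66 to 5.19 in high and 4.39 to 5.39 in low libraries, so the classes overlapped.

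In the model of all 12 libraries no gene passed the main test. With edgeR's quasi-likelihood test and Benjamini-Hochberg adjustment, 0 of 10959 genes (0%) had an adjusted p under 0.05, and the smallest adjusted p was 0.310. At an unadjusted p under 0.05 there were 1125 genes (10.3%), of which 455 were higher in high (4.15%) and 670 lower (6.11%). On the same 12 libraries limma-voom also called 0 genes, with 1131 at an unadjusted p under 0.05, and DESeq2 called 241 (2.2%), of which 113 were higher in high (1.03%) and 128 lower (1.17%). The shared spread was wide, with a biological coefficient of variation of 44.0%. Without replicate 1 of the very low class, which is in neither group compared, the same edgeR test called 76 genes, 71 higher and 5 lower in high. MYH11 had 1455, 2.07 and 3.12 CPM in the very low libraries, which enter its own spread in this model. Its log2 fold change of 7.63 had an SE of 2.15 and an adjusted p of 0.351 with edgeR in the model of 12 libraries.

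When the 6 high and low libraries were fitted alone, a fit described at length here because the model of 12 libraries called none, 26 of 10637 genes passed (0.244%), of which 24 rose in high (0.226%) and 2 fell (0.0188%). In that fit the coefficient of variation was 36.4% and MYH11 had an SE of 0.29 and an adjusted p of 0.00039. All 26 had classes that did not overlap, where 20% of all tested genes did not. All 26 had an unadjusted p under 0.05 in the edgeR fit of 12 libraries, where 10.3% of all genes did. The 26 were chosen on the same 6 libraries, so neither value is independent of that choice. The number of genes that passed was unstable. It was 48, 3 and 4 without high replicate 1, 2 and 3. It was 5, 129 and 17 without low replicate 1, 2 and 3. Only MYH11, PDLIM3 and KCNMB1 passed in all 6 of these fits. On the 6 libraries DESeq2 called 743 genes and limma-voom 14. With the very high libraries added and the very low class left out, 143 of 10820 genes passed (1.32%). Of these, 99 were higher (0.915%) and 44 lower (0.407%) in high. They included all 26, but that fit holds the 6 libraries on which the 26 were chosen.

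**Figure D2:**
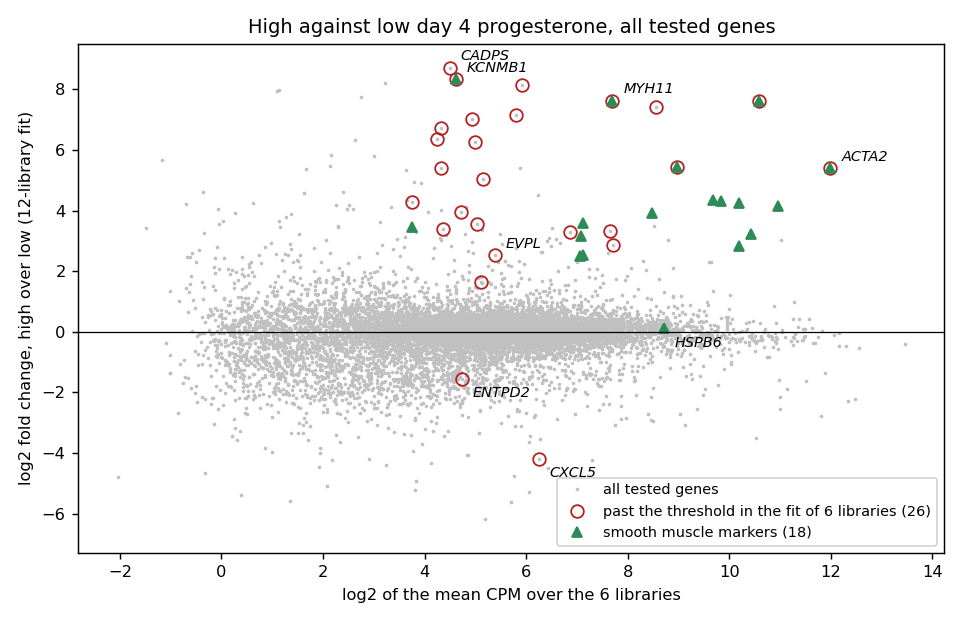
Log2 fold change, high over low, from the fit of 12 libraries against the log2 of the mean CPM over the 6 libraries, 1 point per tested gene. Triangles mark the 18 smooth muscle markers, of which all but HSPB6 lie above 2, and rings mark the 26 genes past the threshold in the fit of 6 libraries, of which CXCL5 and ENTPD2 lie below 0.

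Of the 24 genes that rose in the fit of 6 libraries, a first group belongs to the contractile machinery. PDLIM3, a LIM protein that binds alpha-actinin in muscle, had 486, 749 and 1030 CPM in high, against 3.69, 5.50 and 3.91 CPM in low (log2 fold change 7.42, SE 0.42, adjusted p = 0.0020 in that edgeR fit). MYLK, the kinase that switches on smooth muscle myosin, had 634, 1039 and 1279 CPM in high, against 15.2, 33.3 and 19.2 CPM in low (5.44, SE 0.47, adjusted p = 0.014). MYH11, ACTG2 and ACTA2, with adjusted p of 0.00039, 0.014 and 0.033 in that edgeR fit, belong to the same group. ACTC1, the cardiac alpha actin, had 33.3, 49.2 and 30.1 CPM in high, against 0.132, 1.02 and 0.145 CPM in low (adjusted p = 0.026). DES, TAGLN and CNN1, with log2 fold changes above 4, did not pass in that fit (adjusted p of 0.066, 0.076 and 0.076 with edgeR) and passed with the very high libraries added (0.023, 0.026 and 0.026). In that fit of 9 libraries 16 of the 18 smooth muscle markers passed as higher, where 0.915% of all genes did.

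A second group handles membrane potential and stored calcium. KCNMB1, the beta subunit that makes the large calcium-activated potassium channel of smooth muscle more sensitive to calcium, had 31.4, 51.9 and 63.4 CPM in high, against 0.132, 0.128 and 0.145 CPM in low. These are 1106 reads in the 3 high libraries against 3 reads in the 3 low libraries, a ratio of 364 with a 95% counting interval of 124 to 1766. PLN, phospholamban, the brake on the calcium pump of the sarcoplasmic reticulum, had 45.8, 71.9 and 89.6 CPM in high, against 1.71, 2.94 and 1.59 CPM in low. CASQ1, the calcium-binding protein calsequestrin, had 11.8, 31.0 and 34.2 CPM in high, against 1.05, 1.54 and 1.30 CPM in low. KCNG1, a modifying subunit of voltage-gated potassium channels, had 41.7, 88.2 and 201 CPM in high, against 1.45, 0.512 and 0.289 CPM in low. In each of these genes the lowest high library exceeded the highest low library several-fold. Of the 24 tested genes on the list of smooth muscle calcium handling and excitation, 10 were higher in high without overlap (41.7%, beside 10.3% of all genes) and 1 lower (4.17%, beside 9.68%), with a median log2 fold change of 0.73. KCNMB1 and PLN, 2 of the 24, passed in the fit of 6 libraries, where 0.244% of all genes did.

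The next group is of secreted and signalling genes. RSPO1, a secreted enhancer of WNT signalling, had 24.7, 59.6 and 98.8 CPM in high, against 0.395, 0.128 and 0.868 CPM in low. CHRDL2, a secreted binder of BMP ligands, had 39.3, 162 and 158 CPM in high, against 0.395, 0.384 and 0.434 CPM in low. IL17B, a cytokine of the interleukin 17 family, had 17.6, 46.9 and 54.4 CPM in high, against 0.264, 0.384 and 0.434 CPM in low. All 3 were nearly absent from the low libraries, with 8 to 10 reads over the 3 together. CNR1, the first cannabinoid receptor, had 16.2, 31.2 and 69.2 CPM in high, against 0.659, 0.768 and 1.30 CPM in low. CADPS, which primes dense-core vesicles for release, had 13.8, 77.5 and 44.2 CPM in high, and 2 reads in all in low. PI16, a secreted protein that marks fibroblasts in mouse, had 27.0, 48.1 and 73.1 CPM in high, against 3.03, 2.56 and 3.91 CPM in low. These genes had adjusted p of 0.014 to 0.041 in the edgeR fit of 6 libraries.

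The remaining genes that rose have mixed roles. They are BAG2, a co-chaperone of Hsp70, FBXL22, an F-box protein described in heart muscle, TES and CDC42EP3, which act on the actin cytoskeleton, TSPAN18, a tetraspanin, PSD, an exchange factor for a small GTPase, PPP1R3C, which directs a phosphatase to glycogen, and EVPL. Their log2 fold changes in the fit of 6 libraries ran from 1.64 in CDC42EP3 to 6.26 in FBXL22. EVPL, envoplakin, a protein of epithelial cell junctions, is known from epithelia: it had 72.5, 65.5 and 75.0 CPM in high, against 9.49, 13.8 and 13.3 CPM in low. Its replicates were close in both classes, and its log2 fold change was 2.54 in the fits of 6 and of 12 libraries (SE 0.21 and 0.40). In the other libraries EVPL had 40.4, 80.1 and 141 CPM in very high and 31.3, 32.8 and 51.2 CPM in very low libraries, all above the low class.

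The 2 genes that fell in the fit of 6 libraries were CXCL5 and ENTPD2. CXCL5, a chemokine that draws neutrophils, had 12.6, 3.44 and 7.64 CPM in high, against 161, 150 and 122 CPM in low (log2 fold change -4.19, SE 0.46, adjusted p = 0.026 with edgeR). ENTPD2, a cell surface enzyme that breaks down ATP, had 12.9, 14.3 and 13.5 CPM in high, against 44.1, 41.7 and 34.0 CPM in low (-1.56, SE 0.20, adjusted p = 0.045). The classes were well separated in both, with close replicates in ENTPD2 and a wider spread among the high libraries in CXCL5. In the other libraries CXCL5 had 12.5, 2.49 and 3.03 CPM in very high and 3.53, 630 and 99.7 CPM in very low libraries. It was low in the very low library of highest smooth muscle level and higher in the others of that class.

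**Figure D3:**
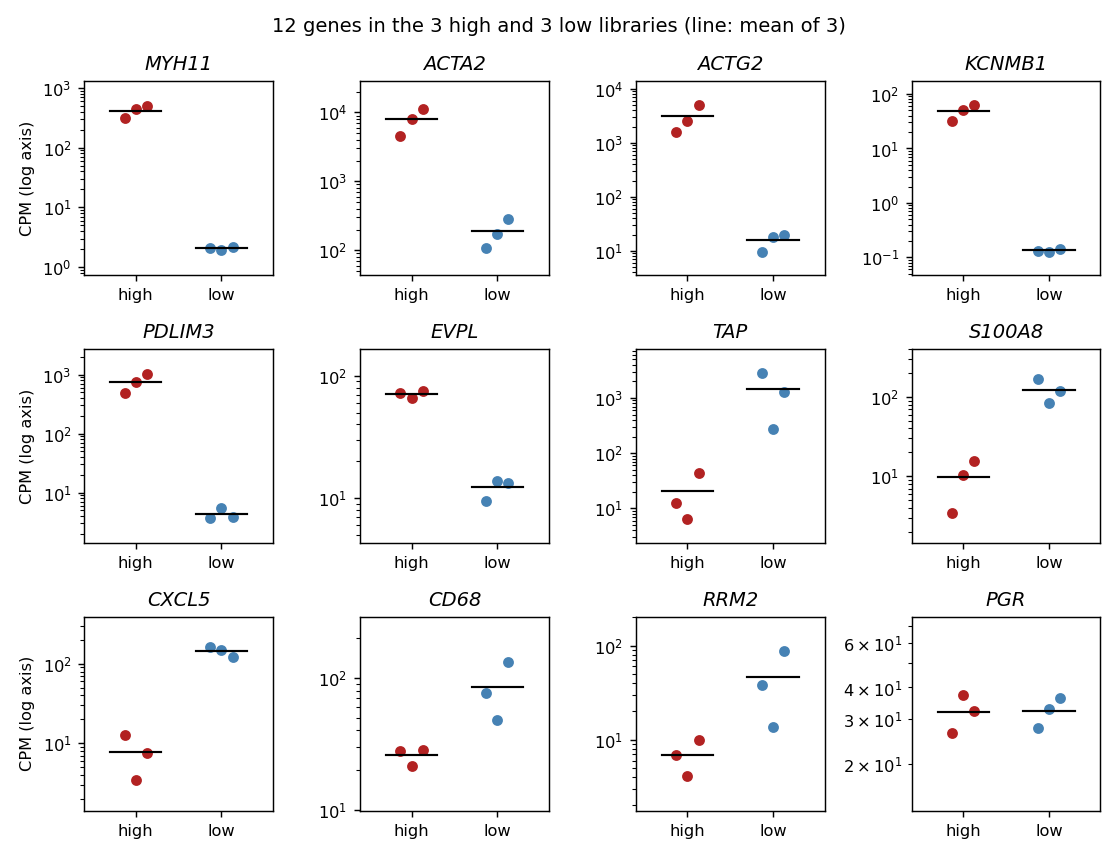
CPM of 12 genes in the 3 high and 3 low libraries, on log axes, with 1 point per library and a line at the mean of 3. The top row and PDLIM3 and EVPL lie higher in every high library, TAP, S100A8, CXCL5, CD68 and RRM2 lie lower in every high library, and PGR overlaps.

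By rule, genes of smallest p in each direction in the fit of 12 libraries are also named, although none passed (adjusted p of 0.310 to 0.351 with edgeR). The genes higher in high were MYL4, EVPL, P2RX1, ACTC1, TNNI1, ADCY8, SLC8A1, KCNS3, PSD and PPP1R3C. MYL4, a myosin light chain of atrial and embryonic muscle, had 12.1, 18.5 and 49.7 CPM in high, against 1.32, 0.512 and 0.724 CPM in low. P2RX1, the ATP-gated cation channel of smooth muscle, had 4.56, 7.01 and 14.3 CPM in high, against 0.395, 0.128 and 0 CPM in low, which is 194 against 4 reads. TNNI1, the slow skeletal troponin I, had 3.09, 13.4 and 9.96 CPM in high, against 0.132, 0 and 0.289 CPM in low, which is 201 against 3 reads. ADCY8, a calcium-stimulated adenylyl cyclase, had 21.9, 47.7 and 37.0 CPM in high, against 6.33, 4.61 and 2.17 CPM in low. Unlike the classical markers, ACTC1, MYL4, P2RX1, TNNI1 and ADCY8 were also low in the very low library of highest smooth muscle level. They had 0, 1.59, 0.707, 0 and 0.530 CPM there. SLC8A1, the sodium-calcium exchanger, averaged 22.4 ± 5.57 CPM in high and 6.52 ± 0.674 CPM in low (SD, n = 3 each), and KCNS3, a potassium channel subunit, averaged 6.16 ± 1.95 CPM in high and 0.901 ± 0.124 CPM in low (SD, n = 3 each).

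Several of the genes named by that rule as lower in high are genes of leukocytes. CD68, a lysosomal protein of macrophages, had 28.0, 21.6 and 28.2 CPM in high, against 76.3, 47.7 and 133 CPM in low. GIMAP5, a GTPase of lymphocytes, had 11.8, 4.08 and 5.87 CPM in high, against 52.3, 15.5 and 83.9 CPM in low. Classes did not overlap in either gene, and the low libraries spread more than the high ones. GMFG, an actin regulator of blood cells, and GAPT, an adaptor of B cells, had log2 fold changes of -2.25 (SE 0.55) and -2.69 (SE 0.62). PKIB, an inhibitor of protein kinase A, had 24.8, 9.44 and 22.1 CPM in high, against 75.3, 32.2 and 89.9 CPM in low. CRIP1, a LIM protein, averaged 116 ± 12.3 CPM in high and 282 ± 85.5 CPM in low (SD, n = 3 each). HACD4, PLTP and RENBP, which act in fatty acid elongation, phospholipid transfer and amino sugar metabolism, had log2 fold changes of -1.91, -1.20 and -1.19. With the very high libraries added and the very low class left out, CRIP1 passed (adjusted p of 0.033 with edgeR), and CD68, GIMAP5, GMFG, GAPT, PKIB, HACD4, PLTP and RENBP did not.

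Markers of several leukocyte types were lower in the high libraries, beside 9.68% of all tested genes that were lower without overlap. Of 20 tested T and NK cell markers 8 were lower without overlap and none higher (median log2 fold change -1.59), of 7 macrophage and dendritic cell markers 3 (median -1.72) and of 7 neutrophil markers 4 (median -2.60). Of 7 B and plasma cell markers 1 was lower without overlap, a share near that of all genes (median -2.37). Of 5 mast cell markers 1 was higher without overlap and 0 lower, and the mean log2 CPM of that list was 4.37 ± 0.38 in high and 4.47 ± 0.83 in low (SD, n = 3 each). The mean log2 CPM of the T and NK list was 2.02 to 3.26 in high and 3.13 to 4.41 in low libraries, so the list as a whole overlapped between the classes. The B and plasma cell list overlapped too (1.81 to 4.34 and 3.79 to 6.24). The macrophage and dendritic list (3.11 to 3.92 and 4.15 to 5.92) and the neutrophil list (2.58 to 4.63 and 4.91 to 5.93) did not. Of the 7 neutrophil markers 2 had a positive log2 fold change. CD4, the helper T cell coreceptor, had 13.3, 5.23 and 6.96 CPM in high, against 53.9, 15.5 and 55.4 CPM in low, and CD247, a signalling chain of the T cell receptor, averaged 18.5 ± 4.71 CPM in high and 55.6 ± 26.7 CPM in low (SD, n = 3 each). PTPRC, the common leukocyte antigen CD45, had 54.3, 31.5 and 33.8 CPM in high, against 184, 81.5 and 140 CPM in low. MZB1, a plasma cell protein, had 24.2, 6.50 and 3.68 CPM in high, against 90.7, 11.5 and 191 CPM in low, with overlap. No member of these lists passed in edgeR's fits of 12 or of 6 libraries. On the 12 libraries DESeq2 called 3 T and NK, 2 macrophage and dendritic, 2 neutrophil and 1 B and plasma cell markers. All were lower in high, where DESeq2 called 1.17% of all genes lower. In edgeR's fit of 9 libraries 3 neutrophil markers passed as lower, where 0.407% of all genes did. PTPRC, which is on no list, had an adjusted p of 0.048 with edgeR in that fit. Smooth muscle level moved with the same classes, at 8.75 to 9.95 in high and 4.66 to 5.52 in low libraries, and its part in these differences was not tested within the 6 libraries.

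Several secreted and defence genes, chosen after their values were seen and on no list as a group, were lower in every high library than in any low library. TAP, the tracheal antimicrobial peptide, a beta-defensin of bovine epithelia, had 12.5, 6.38 and 43.6 CPM in high, against 2857, 276 and 1297 CPM in low. PIGR, the receptor that carries IgA and IgM across epithelium, had 76.9, 81.0 and 198 CPM in high, against 1571, 812 and 635 CPM in low. S100A8, a subunit of the neutrophil protein calprotectin, had 3.49, 10.5 and 15.6 CPM in high, against 166, 84.2 and 118 CPM in low. Every low library lay above every high library in all 3, and the low libraries were most unlike each other in TAP. S100A12, a related calcium-binding protein, averaged 56.9 ± 37.4 CPM in high and 414 ± 134 CPM in low (SD, n = 3 each). TCN1, a vitamin B12 carrier of secretions, had 24.8, 10.6 and 12.3 CPM in high, against 85.8, 243 and 564 CPM in low. MMP7, the matrix metalloproteinase matrilysin, had 9.39, 3.44 and 5.32 CPM in high, against 43.1, 48.6 and 92.2 CPM in low. C3, the central complement protein, had 392, 130 and 192 CPM in high, against 2750, 562 and 4778 CPM in low.

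None of these genes passed in edgeR's fits of 12 or of 6 libraries. DESeq2 on the 12 libraries called TAP, S100A8, TCN1 and MMP7 (adjusted p of 0.012, 0.038, 0.026 and 0.044) but not PIGR or C3, and gave S100A12 no adjusted p. In edgeR's fit of 9 libraries TAP, PIGR, S100A8, S100A12, TCN1 and MMP7 fell, with adjusted p of 0.030, 0.030, 0.020, 0.032, 0.030 and 0.033 with edgeR, and C3 did not pass (0.113). The very high libraries had 16.3 to 24.3 CPM of TAP and 45.9 to 92.9 CPM of PIGR, near the high class. In the very low class replicate 2 had 1701 CPM of TAP and 5164 CPM of PIGR, while replicates 1 and 3 had 4.60 and 19.4 CPM of TAP and 89.1 and 173 CPM of PIGR, so within that class both genes were high in 1 library and low in the others. Beta-defensins form a family of similar genes, so the reads given to TAP alone are uncertain. Of the 38 tested genes on the inflammation list 16 were lower in high without overlap (42.1%, beside 9.68% of all genes) and 0 higher. The median log2 fold change of the list was -1.33. Of the 38, 1, CXCL5, passed as lower in the fit of 6 libraries, where 0.0188% of all genes did.

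The level of the epithelial list overlapped between the classes, while single members such as KRT7 did not. EPCAM, an adhesion molecule of epithelial cells, had 423, 350 and 234 CPM in high, against 428, 380 and 276 CPM in low (log2 fold change -0.11, 95% interval -1.77 to 1.56). KRT7, a keratin of simple epithelium, had 60.0, 29.2 and 71.7 CPM in high, against 135, 216 and 241 CPM in low. MSLN, mesothelin, a membrane glycoprotein listed here with the mesothelial markers, had 43.7, 26.0 and 28.4 CPM in high, against 123, 248 and 279 CPM in low. The mesothelial list did not move as one. Of its 3 tested members 1 was lower and 1 higher without overlap, with log2 fold changes from -2.73 to 1.53. KRT7 and MSLN did not pass in edgeR's fits of 12 or of 6 libraries or with DESeq2 on the 12, and passed in edgeR's fit of 9 libraries (adjusted p of 0.050, just under the threshold, and 0.022). Of the 13 tested epithelial markers 3 were lower in high without overlap (23.1%, beside 9.68% of all genes) and none higher. Ciliated cell markers had a median log2 fold change of -1.55, but all 11 overlapped between the classes.

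Many cell cycle genes were lower in the high libraries. Of 32 tested members 15 were lower in high without overlap (46.9%, beside 9.68% of all genes) and 0 higher, with a median log2 fold change of -1.24. RRM2, a subunit of the enzyme that makes deoxynucleotides, had 6.84, 4.08 and 9.82 CPM in high, against 37.8, 13.7 and 87.1 CPM in low. AURKA, a kinase of the mitotic spindle, had 4.56, 4.59 and 4.77 CPM in high, against 9.09, 6.53 and 20.6 CPM in low. Replicate 3 of the low class was the highest for both genes and replicate 2 the lowest of that class. No member passed in the edgeR fits of 12, 6 or 9 libraries. On 12 libraries DESeq2 called 1 member lower in high, where it called 1.17% of all genes lower. Of 22 interferon-stimulated genes 8 were lower without overlap (36.4%, median -0.61), and again none passed in those edgeR fits.

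**Figure D4:**
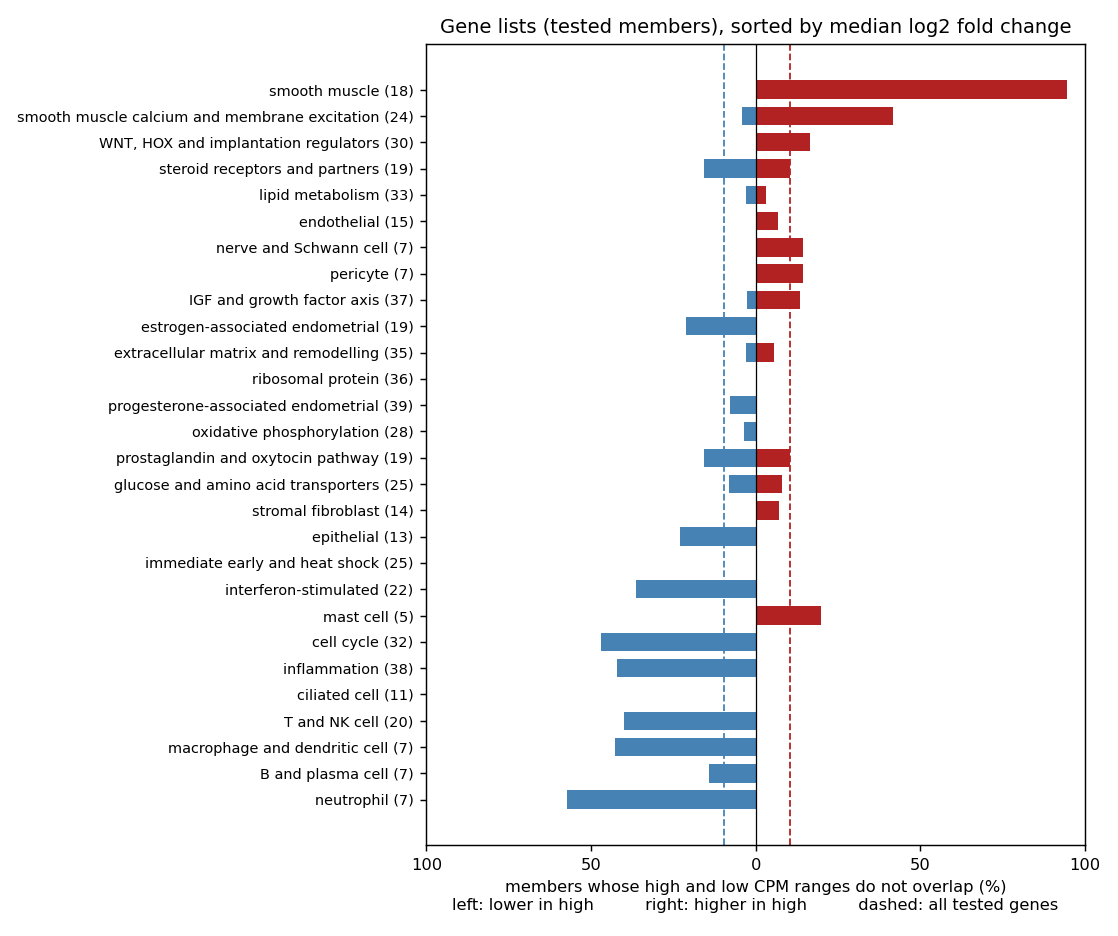
Share of the tested members of each gene list whose CPM ranges in high and low libraries did not overlap, to the right where higher in high and to the left where lower in high, for lists with at least 5 tested members. The dashed lines are the shares over all tested genes, 10.3% higher and 9.68% lower, and the smooth muscle list reaches 94.4%.

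No difference was detected in the nuclear receptors through which progesterone and estrogen act. PGR, the nuclear progesterone receptor, had 26.4, 37.5 and 32.3 CPM in high, against 27.7, 33.0 and 36.3 CPM in low, a log2 fold change of -0.01 with a 95% interval of -0.61 to 0.59. ESR1, which encodes estrogen receptor alpha, had 59.8, 61.2 and 46.8 CPM in high, against 31.1, 84.4 and 17.5 CPM in low (log2 fold change 0.33, 95% interval -0.95 to 1.61). OXTR, the oxytocin receptor, had 37.8, 8.54 and 8.73 CPM in high, against 6.85, 11.1 and 21.7 CPM in low (0.47, -1.05 to 2.00). The classes overlapped in all 3, and the intervals for ESR1 and OXTR reach beyond 2-fold higher in high. The interval for OXTR also reaches beyond 2-fold lower in high. FKBP5, a chaperone partner that steroid receptors are known to induce, had 286, 237 and 180 CPM in high, against 184, 182 and 99.6 CPM in low, a log2 fold change of 0.59 with a 95% interval of -0.04 to 1.23 and an adjusted p of 0.509 with edgeR. NR3C1, the glucocorticoid receptor, had 32.2, 23.6 and 28.2 CPM in high, against 57.5, 39.7 and 58.8 CPM in low, and did not pass (adjusted p = 0.351 in the same fit). Of the 19 tested steroid receptors and partners 2 were higher and 3 lower without overlap, 10.5% and 15.8% of the list beside 10.3% and 9.68% of all genes.

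Genes that progesterone is known to act on in the endometrium did not separate the classes as a list. Of 39 tested progesterone-associated genes 0 were higher and 3 lower without overlap (7.69%), beside 10.3% and 9.68% of all genes, with a median log2 fold change of -0.22. PENK, the precursor of the enkephalins, had 799, 786 and 900 CPM in high, against 512, 1511 and 291 CPM in low. Its classes overlapped (log2 fold change 0.10, SE 0.80), while the very low libraries had 0.516 to 6.50 CPM. SERPINA14, the uterine milk protein, had 2.28, 20.9 and 14.0 CPM in high, against 27.9, 4.48 and 396 CPM in low, so 1 low library held most of it. Among 19 genes of prostaglandin and oxytocin signalling 2 were higher and 3 lower without overlap (10.5% and 15.8%). PTGES, a prostaglandin E synthase, had 5.37, 2.81 and 4.23 CPM in high, against 4.48, 45.8 and 50.1 CPM in low, with overlap. PTGER3, a prostaglandin E receptor of smooth muscle among other cells, had 9.39, 23.2 and 39.3 CPM in high, against 1.05, 1.54 and 0.868 CPM in low, and passed in the fit of 9 libraries (adjusted p = 0.025 with edgeR).

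In the growth factor, WNT and transporter lists 1 member each passed in edgeR's fit of 9 libraries, of 37, 30 and 25 tested. Of all tested genes 1.32% passed in that fit, so these are single genes and not a result about the lists. IGFBP5, a binding protein of insulin-like growth factors, had 45.9, 70.9 and 76.0 CPM in high, against 3.95, 10.5 and 4.34 CPM in low. RSPO3, a WNT enhancer related to RSPO1, had 50.5, 99.6 and 195 CPM in high, against 1.32, 0.768 and 6.08 CPM in low. SLC1A5, a transporter of glutamine, had 11.1, 7.78 and 16.9 CPM in high, against 30.8, 43.1 and 33.1 CPM in low. The classes did not overlap in any of the 3. IGFBP5 and RSPO3 rose and SLC1A5 fell in the fit of 9 libraries (adjusted p of 0.013, 0.025 and 0.039 with edgeR). Without overlap, 5 of 37 members of the IGF and growth factor list were higher (13.5%) and 1 lower, 5 of 30 members of the WNT and HOX list were higher (16.7%) and 0 lower, and 2 of 25 transporters were higher (8%) and 2 lower, beside 10.3% higher and 9.68% lower of all genes. Ribosomal protein genes, 36 of them, all overlapped (median log2 fold change -0.20), as did the 25 immediate early and heat shock genes (median -0.60).

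Over all genes, 1132 of 10959 (10.3%) were higher in every high library than in any low library and 1061 (9.68%) were lower. These sets were chosen on the 6 libraries, so the other 6 libraries show where they lie outside the comparison. Of the 1132 higher genes, 557, 618 and 925 reached the range of the high class or beyond it in the 3 very high libraries. In the very low class 723 (63.9%) did so in replicate 1, and 235 and 280 in replicates 2 and 3. Replicate 1, the very low library of highest smooth muscle level, lay on the high side for more of these genes than very high replicates 1 and 2. It did so for fewer than very high replicate 3. It also lay in the low range or beyond it for 340 (30.0%), where the very high libraries did for 253, 216 and 103. Of the 1061 lower genes, 593, 748 and 842 were on the high side in the very high libraries and 581, 161 and 302 in the very low libraries. On the low side were 263, 172 and 125 in the very high libraries and 354, 853 and 553 in the very low libraries. Of the 24 genes that rose in the fit of 6 libraries, 8, 18 and 23 reached the high range in the very high libraries, and 21, 0 and 0 in the very low libraries.

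**Figure D5:**
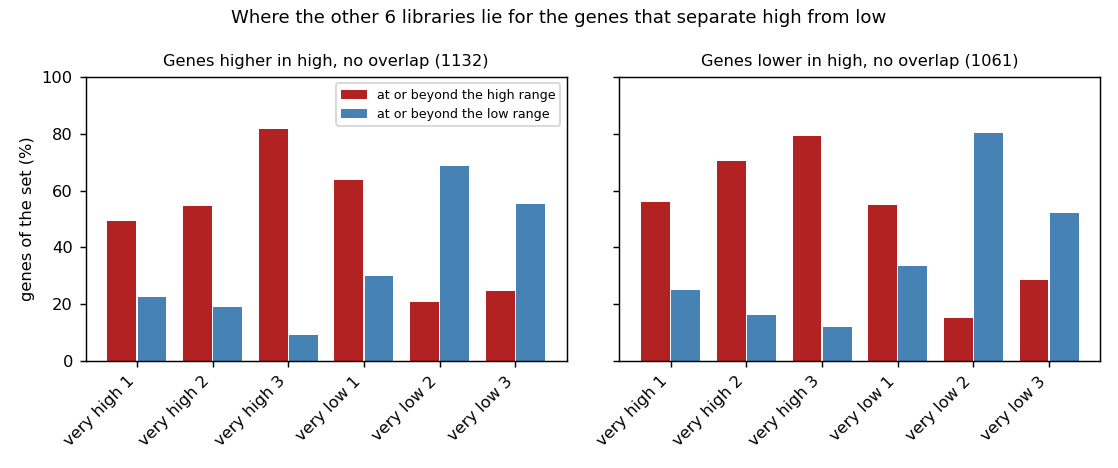
Share of the genes that separate high from low without overlap which lie at or beyond the range of the high class (red) or of the low class (blue) in each of the other 6 libraries, for the 1132 genes higher in high (left) and the 1061 lower in high (right). Replicate 1 of the very low class lies on the high side for 63.9% of the higher genes, between the very high libraries. It lies on the low side for 30.0%, more than any very high library. Replicates 2 and 3 of the very low class lie mostly on the low side.

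With the smooth muscle level of each library as a covariate in the model of 12 libraries, 39 genes passed (0.356%), 38 higher (0.347%) and 1, FKBP1A, lower in high (0.00912%). Apart from EPCAM they are not the genes described so far. Of the 39, 37 had overlapping CPM in the high and low classes, and none had an unadjusted p under 0.05 without the covariate. Their median log2 fold change without it was -0.11. EPCAM, CLDN3, KRT8 and ELF3 of the epithelial list are among them. EPCAM had a log2 fold change of 2.88 with the covariate and -0.11 without it. The count rested on replicate 1 of the very low class, the library of highest smooth muscle and lowest epithelial level: without it 0 genes passed, with 27, 15 and 15 without high replicates 1, 2 and 3, 25, 588 and 19 without low replicates 1, 2 and 3, and 26 and 59 without very low replicates 2 and 3. With the epithelial level as a further covariate 0 genes passed, with 335 at an unadjusted p under 0.05. The median log2 fold change of the 18 smooth muscle markers was 0.09 with the covariate, which was made from them. MYH11 had 1.12 (SE 0.66) and CXCL5 0.50, while EVPL kept 2.53 and ACTC1 6.66, and none of these 4 passed (adjusted p of 0.364, 0.740, 0.093 and 0.11 with edgeR).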

How the data were processed

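The authors deposited raw counts per gene symbol, whole numbers in 1 column per sample, not scaled and not pooled. Per the labels' protocols, a stranded TruSeq kit was used on oligo-dT selected RNA, and 1 pool of the 12 libraries was sequenced. The builds UMD3.1 and bosTau8, Trimmomatic 0.32 and FastQC 0.11.2 come from the submitters' processing notes. Which aligner, counting program, strand setting and annotation were used is not given in the sources used here, so reads of overlapping genes cannot be separated. Among the genes described, MYH11, MYL4, PLTP, TSPAN18 and TCN1 overlap another tested gene in a RefSeq gene table (assembly ARS-UCD2.0), which gave names and overlaps only.

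From the counts, genes were kept by filterByExpr (count minimum 10) and scaled by TMM, and edgeR 4.0.16 in R 4.3.3 fitted a quasi-likelihood model of 4 class means to 12 libraries, with Benjamini-Hochberg adjustment over 10959 genes and a threshold of 0.05. CPM are TMM-scaled, fold changes are log2 of high over low, and a marker level is the mean log2 CPM (prior count 2) of the tested members of a list. DESeq2 1.42.0 and limma 3.58.1 (voom) were alternatives, with other scalings, filters, thinning, covariates, libraries left out and the replicate number as a block. The model was also run on simulated counts, in which all classes shared the same spread for each gene. The unequal spread of the very low class was not simulated, so that run does not bear on the gene counts above. Intervals of read ratios cover counting error only.

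The genes named by rule are PGR, ESR1, OXTR, FKBP5, 6 smooth muscle markers and, since fewer than 10 genes passed, the 10 of smallest p in each direction, of which 1 is not reported here. All others were chosen after their values were seen. The comparison, its lists and its members were chosen with earlier results of these data known.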

Additional observations from a re-analysis of the deposited data

How the results depend on the processing

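Genes past the threshold numbered 0 in the model of 12 libraries, 26 with the 6 libraries alone, 143 without the very low class, 241 with DESeq2 and 39 with the smooth muscle level; leaving out 1 library gave 0 to 76. It was 0 with each other scaling, filter, thinning, limma-voom, both covariates or no very high class. The cause was not tested. With the smooth muscle level, DESeq2 gave 988 and leave-outs 0 to 588. For the 6 libraries alone, DESeq2 gave 743, limma-voom 14 and leave-outs 3 to 129. Counts without overlap stayed within 1.5 times (1062 to 1283 higher, 1014 to 1157 lower). The smooth muscle difference was 3.93 to 4.53 over leave-outs and 5.42 with 5 markers. Replicate numbers are shared between classes, and same-numbered deviations from the class means correlated at 0.06, -0.01 and 0.15. Differently numbered ones correlated at -0.20 to 0.14. With 3 libraries per class these values cannot decide whether the numbers pair samples. With the replicate block 0 genes passed with 12 libraries and 90 with 6. No scaling moved the median of all genes by more than 0.1. Depth limits genes with a few reads in the low class, such as KCNMB1 and CADPS.

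Signs turned as follows on the log2 scale. Of the genes that turned with the smooth muscle level as covariate, only EPCAM and FKBP1A passed the threshold. With the epithelial level as well no gene passed, and SEs could be large, such as 4.6 for C3 and 3.71 for MZB1. Those turned values are not read as effects. PGR, near 0, was 0.0094 without the very high class, 0.0082 with no filter, 0.0045 with the CPM filter and 0.045 thinned. Over leave-outs PGR ran from -0.14 to 0.13, ESR1 from -0.045 to 1.22, OXTR from -0.60 to 1.03, EPCAM from -0.28 to 0.10, PENK from -0.29 to 1.06 and HSPB6 from -0.20 to 0.79. With the smooth muscle level the log2 fold changes that turned were DES -1.38, TAGLN -0.0035, CNN1 -1.12, CHRDL2 -0.77, FBXL22 -0.44, CXCL5 0.50, PI16 -0.47, CDC42EP3 -0.33, ENTPD2 0.47, EPCAM 2.88, KRT7 1.29, PIGR 0.59, MMP7 0.11, PTGER3 -2.52, RSPO3 -0.063, FKBP1A -1.48 and HSPB6 -2.06. With the epithelial level as well they were ESR1 -3.33, DES -0.16, CNN1 -3.58, MYL4 -0.0021, SLC8A1 -0.19, PPP1R3C -0.91, CD68 0.40, CRIP1 0.26, GIMAP5 1.43, PLTP 1.88, GMFG 0.48, PLN -0.36, MYLK -0.90, FBXL22 -1.01, CDC42EP3 -0.19, TES -0.55, CNR1 -1.61, MCAM -0.10, EPCAM 1.98, CD247 2.27, CD4 3.15, MZB1 8.53, PTPRC 0.23, C3 4.81, NR3C1 0.044, PTGER3 -2.80, PENK -1.20, IGFBP5 -1.03, RRM2 0.92, AURKA 0.63 and FKBP1A -1.25.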
